A study of Homo sapiens with 6 samples.

Results

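The histone variant H2A.Z is best known from the nucleosomes that flank the starts of active genes, and the regions described here are those where it lay deep inside genes instead. They are called interior H2A.Z peaks. Each is a peak of the Abcam antibody to H2A.Z, up to 2000 bp wide, that overlapped a peak of the CST antibody to the same variant and lay wholly inside a protein-coding gene. Each was also more than 5 kb from both ends of every annotated gene of any biotype. Peaks overlapped by all 3 of H3.3, H4K16ac and H3K79me2, called the 3 marks here, were left out. Of 44634 Abcam peaks, 33152 were narrow enough and shared with the CST list, 13486 of those lay wholly inside a protein-coding gene, and 3785 were more than 5 kb from every gene end. Removing the 517 with all 3 marks left 3268 interior H2A.Z peaks, out of 300470 peaks in the 5 lists.

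The libraries came from HEK293T cells, an established kidney-derived line that expresses the large T antigen of SV40, and the labels give no treatment. Chromatin immunoprecipitation and sequencing (ChIP-seq) was done once with each of the antibodies to H2AZ (CST and Abcam), H3.3, H4K16ac and H3K79me2, and an input library completed the 6. Per the labels, the chromatin was fixed with formaldehyde and sheared by sonication. With 1 library per antibody there was no replicate spread and no test, so differences are given as sizes, and intervals are exact Clopper-Pearson intervals at 95% that cover counting error only. The values of a peak are the authors' own: its fold, the enrichment at the summit as a linear ratio, and its −log10 q. No read depth is stated for these libraries in the sources used here.

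As background, H2A.Z is exchanged into nucleosomes by the SRCAP and EP400 remodellers and removed by INO80 and ANP32E, and it is found at promoters, enhancers and insulators. H3.3 is the replication-independent H3 variant, placed by HIRA at active regulatory elements and by ATRX and DAXX at heterochromatin. H4K16ac is written by KAT8. H3K79me2 is written by DOT1L behind the elongating polymerase and is highest in the first part of transcribed genes, downstream of the start.

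Sequence at inner transcript starts came from RefSeq start windows (GRCh38.p14), which run from 250 bases before to 50 bases after a listed transcript start. A gene can have listed starts that lie far inside it, and 637 of the interior H2A.Z peaks had one within 1 kb. The windows below belong to peaks among the strongest of their mark combinations that lay at such a start, and they show the base make-up that is counted further on. Bases run 5′ to 3′ on the gene's strand, and capitals mark each CG dinucleotide, the target of DNA methylation. The marks named for each gene are those of that peak only, not of all peaks at the start. HMGCLL1 (chr6:55579143-55579442, minus strand) and CYP2J2 (chr1:59926724-59927023, minus) carried H2A.Z and none of the 3 marks. RHOU (chr1:228735229-228735528, plus) carried H4K16ac, and WNT9B (chr17:46851333-46851632, plus) carried H3.3 and H4K16ac. COMMD6 (chr13:75537792-75538091, minus) and LIPA (chr10:89251726-89252025, minus) carried H3K79me2. KLF12 (chr13:74133880-74134179, minus) carried H3.3 and H3K79me2, and TMEM9 (chr1:201154425-201154724, minus) carried H4K16ac and H3K79me2. A further interior peak with H3.3 and H3K79me2 lay 381 bp from the RHOU start. Another with H3.3 lay 240 bp from the TMEM9 start, so neighbouring peaks at these starts carried the remaining marks.
HMGCLL1: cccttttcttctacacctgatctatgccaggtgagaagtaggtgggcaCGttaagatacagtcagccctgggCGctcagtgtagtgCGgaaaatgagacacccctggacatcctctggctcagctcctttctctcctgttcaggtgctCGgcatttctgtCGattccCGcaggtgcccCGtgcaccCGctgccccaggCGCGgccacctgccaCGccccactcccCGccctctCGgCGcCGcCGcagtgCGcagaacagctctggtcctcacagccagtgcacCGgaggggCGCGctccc
CYP2J2: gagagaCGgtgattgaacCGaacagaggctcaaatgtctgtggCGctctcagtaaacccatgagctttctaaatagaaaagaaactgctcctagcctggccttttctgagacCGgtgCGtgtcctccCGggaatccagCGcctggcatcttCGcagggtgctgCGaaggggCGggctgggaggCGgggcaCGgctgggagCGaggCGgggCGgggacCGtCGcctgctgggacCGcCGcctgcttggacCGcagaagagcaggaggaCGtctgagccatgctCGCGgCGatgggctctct
RHOU: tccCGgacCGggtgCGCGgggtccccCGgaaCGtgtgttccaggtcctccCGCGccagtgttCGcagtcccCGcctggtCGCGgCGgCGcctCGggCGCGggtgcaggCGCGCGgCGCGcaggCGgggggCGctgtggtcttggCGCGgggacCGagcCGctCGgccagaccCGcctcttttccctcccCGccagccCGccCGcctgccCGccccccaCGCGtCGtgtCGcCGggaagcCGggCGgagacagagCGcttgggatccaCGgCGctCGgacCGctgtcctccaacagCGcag
WNT9B: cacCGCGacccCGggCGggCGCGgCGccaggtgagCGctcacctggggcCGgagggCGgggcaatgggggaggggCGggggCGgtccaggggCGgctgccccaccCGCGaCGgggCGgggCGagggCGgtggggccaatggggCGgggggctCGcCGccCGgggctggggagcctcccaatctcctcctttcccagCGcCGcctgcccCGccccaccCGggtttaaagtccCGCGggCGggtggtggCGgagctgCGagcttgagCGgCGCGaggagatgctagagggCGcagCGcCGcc
COMMD6: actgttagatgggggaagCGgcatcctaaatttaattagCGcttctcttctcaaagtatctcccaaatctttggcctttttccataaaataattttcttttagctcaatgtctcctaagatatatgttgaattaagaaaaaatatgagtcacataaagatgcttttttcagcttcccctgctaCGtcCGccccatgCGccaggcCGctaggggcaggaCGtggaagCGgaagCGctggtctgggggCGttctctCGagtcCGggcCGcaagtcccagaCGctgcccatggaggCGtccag
LIPA: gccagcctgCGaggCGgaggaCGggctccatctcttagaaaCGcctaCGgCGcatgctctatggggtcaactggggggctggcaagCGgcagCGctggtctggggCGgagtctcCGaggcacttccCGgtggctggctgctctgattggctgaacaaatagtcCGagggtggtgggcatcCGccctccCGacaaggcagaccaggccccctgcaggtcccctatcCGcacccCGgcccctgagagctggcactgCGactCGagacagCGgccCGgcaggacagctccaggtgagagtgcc
KLF12: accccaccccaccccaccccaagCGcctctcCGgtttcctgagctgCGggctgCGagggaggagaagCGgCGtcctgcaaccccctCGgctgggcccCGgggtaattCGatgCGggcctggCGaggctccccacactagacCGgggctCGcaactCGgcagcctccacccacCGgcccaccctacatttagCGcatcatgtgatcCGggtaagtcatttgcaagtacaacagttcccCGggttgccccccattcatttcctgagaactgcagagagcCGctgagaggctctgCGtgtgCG
TMEM9: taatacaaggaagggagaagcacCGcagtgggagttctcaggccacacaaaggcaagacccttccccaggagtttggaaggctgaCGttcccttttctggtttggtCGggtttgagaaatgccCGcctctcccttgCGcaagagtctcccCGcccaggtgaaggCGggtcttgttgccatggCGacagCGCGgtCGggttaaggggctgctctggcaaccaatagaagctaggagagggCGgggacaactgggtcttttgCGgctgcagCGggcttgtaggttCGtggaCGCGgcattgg
The window of RHOU held 47 CG dinucleotides, WNT9B 38, CYP2J2 24, KLF12 21, HMGCLL1 and LIPA 20 each, TMEM9 17 and COMMD6 15. Their GC content lay between 49% in COMMD6 and 79.7% in WNT9B.

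Interior H2A.Z peaks were narrow and mostly of modest strength, with a long upper tail. Their median width was 361 bp (quartiles 248 and 561 bp, widest 1982 bp). The Abcam fold had a median of 9.89, with quartiles of 6.77 and 19.8 and a highest value of 112. The CST fold of the overlapping peak had a median of 8.41, with quartiles of 6.38 and 12.2 and a highest value of 49.6. Across the 3268 peaks the folds of the antibodies had a Spearman rank correlation of 0.69, a description over regions that share both libraries. The summits of the antibodies lay a median of 45 bp apart and within 150 bp of each other in 84.1% of peaks. These values helped to choose the peaks and are given as a description only.

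The limits of the rule cut through a continuous range. The peaks nearest the 5 kb limit lay 5001 bp (in SNX12), 5003 bp (TMEM184A) and 5008 bp (HOXD3) from a gene end, with Abcam −log10 q of 147, 10.6 and 31.4. Just outside it were peaks at 4996 bp in ZNF875 and OTOF and at 4995 bp in the overlapping genes AZIN2, ZNF362 and TRIM62, at 201, 8.22 and 105. There were 282 interior peaks at 5 to 6 kb and 361 otherwise eligible peaks at 4 to 5 kb. The widest were in RARG at 1982 bp, ASPG at 1898 bp and CREB3L1 at 1872 bp, with −log10 q of 163, 107 and 223. Only 2 peaks failed on width alone, in CA4 (2186 bp) and CDC14A (2478 bp), at 68.5 and 137.

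H3.3 was the most frequent of the 3 marks at interior H2A.Z peaks and H3K79me2 the least. The same order held among H2A.Z peaks anywhere in the genome. H3.3 overlapped 1690 of 3268 (51.7%, 50 to 53.4), against 54.4% of all 25005 Abcam peaks chosen by the same width, sharing and mark limits anywhere in the genome. H4K16ac overlapped 1422 (43.5%, 41.8 to 45.2), against 34.7% of those peaks. H3K79me2 overlapped 320 (9.79%, 8.79 to 10.9), against 23.2%. None of the 3 marks was found at 1067 (32.6%, 31.0 to 34.3), against 28.8%. Among peaks with fewer than 3 marks, the interior H3.3 share was thus slightly below the background, which lay outside its interval. H3K79me2 was further below it, and H4K16ac above it. With peaks of all 3 marks kept, the interior shares of the single marks rose to 58.3%, 51.2% and 22.1%, in the order given above. The background was not taken with such peaks kept, so whether these differences depend on leaving them out was not tested. The 25005 peaks include the interior ones.

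Set beside the other places of H2A.Z, interior peaks lay between gene ends and the space outside genes in 3 of these 4 measures. Under the same limits there were 12921 peaks within 1 kb of a gene end and 3471 that were over 5 kb outside every gene. H3K79me2 overlapped 9.79% of interior peaks, 38.5% (37.6 to 39.3) at gene ends and 0.835% (0.56 to 1.2) outside genes. H3.3 overlapped 51.7%, 58.8% (57.9 to 59.6) and 40.3% (38.7 to 42.0) in the same order. Peaks with none of the 3 marks made up 32.6%, 21.6% (20.9 to 22.4) and 46.1% (44.4 to 47.7). H4K16ac was the exception, at 43.5%, 28% (27.2 to 28.8) and 39.8% (38.2 to 41.4).

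**Figure D1:**
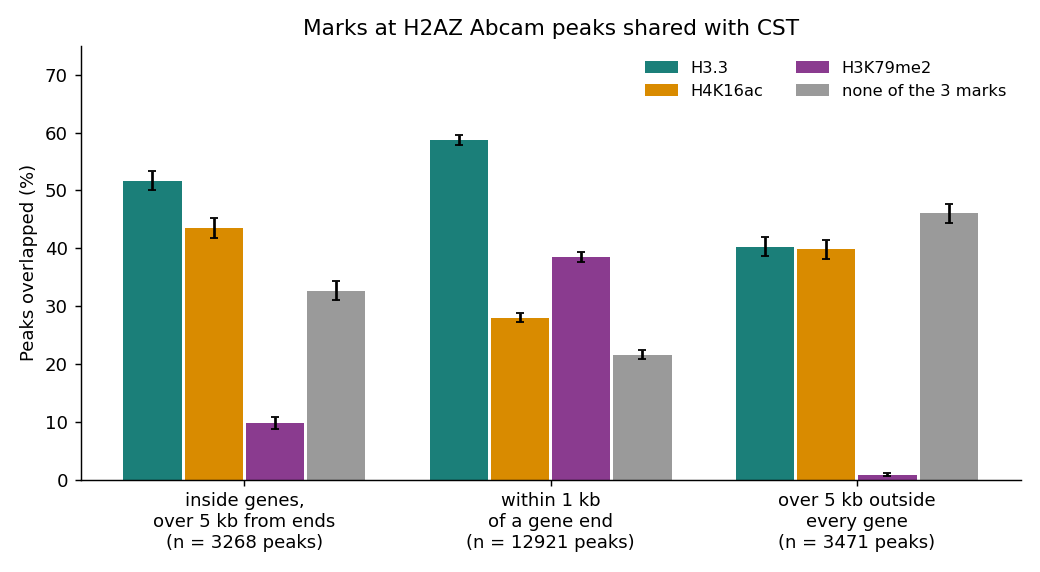
Share of H2AZ Abcam peaks (%, y axis) overlapped by H3.3, H4K16ac, H3K79me2 or none of them, for peaks inside genes over 5 kb from ends, within 1 kb of a gene end and over 5 kb outside every gene. Bars are shares and error bars exact 95% intervals for counting error; H3K79me2 stands at 9.79%, 38.5% and 0.835% in that order.

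The H4K16ac order rested on leaving out peaks with all 3 marks, which were 517 of 3785 (13.7%) inside genes, 6868 of 19789 (34.7%) at gene ends and 62 of 3533 (1.75%) outside genes. With them kept, H4K16ac overlapped 51.2% (49.6 to 52.8) of interior peaks, 53.0% (52.3 to 53.7) of those at gene ends and 40.8% (39.2 to 42.5) of those outside genes. H3K79me2 was then at 22.1%, 59.8% and 2.58%, in the same order of places as before. H3.3 was then at 58.3% (56.7 to 59.9), 73.1% (72.5 to 73.7) and 41.4% (39.8 to 43.0), so that gene ends stood well above the interior. Peak width also differed, with medians of 361 bp inside genes, 479 bp at gene ends and 349 bp outside genes, and wider peaks meet others more easily. Peaks of 250 to 500 bp were compared only with fewer than 3 marks. Among them, H3K79me2 overlapped 10.0% inside genes (n = 1443), 40.0% at gene ends (n = 5196) and 0.581% outside genes (n = 1549). H3.3 was at 49.3%, 50.8% and 35.8% in these peaks. The intervals inside genes (46.7 to 51.9) and at gene ends (49.5 to 52.2) overlapped, but only with peaks of all 3 marks left out.

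The 7 possible combinations were unequal. No mark was the most frequent, with 1067 peaks in 845 host genes, followed by H3.3 with H4K16ac, with 988 peaks (30.2%, 28.7 to 31.8) in 649 hosts. H3.3 alone was found at 491 peaks (15.0%) and H4K16ac alone at 402 (12.3%). H3.3 with H3K79me2 came to 211 peaks (6.46%), H3K79me2 alone to 77 (2.36%) and H4K16ac with H3K79me2 to 32 (0.979%). Peaks without a mark were the weakest by the Abcam antibody, with a median fold of 7.61 (quartiles 5.99 and 11.3) and a median width of 282 bp. Those with H4K16ac alone had a median fold of 8.51, those with H3.3 alone or with H4K16ac 12.6 each, and those with H3K79me2 alone 15.2. The highest medians were 20.3 with H3.3 and H3K79me2 and 28.6 with H4K16ac and H3K79me2. The CST medians ranged less widely, from 7.5 with H4K16ac alone to 11.5 with H4K16ac and H3K79me2.

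**Figure D2:**
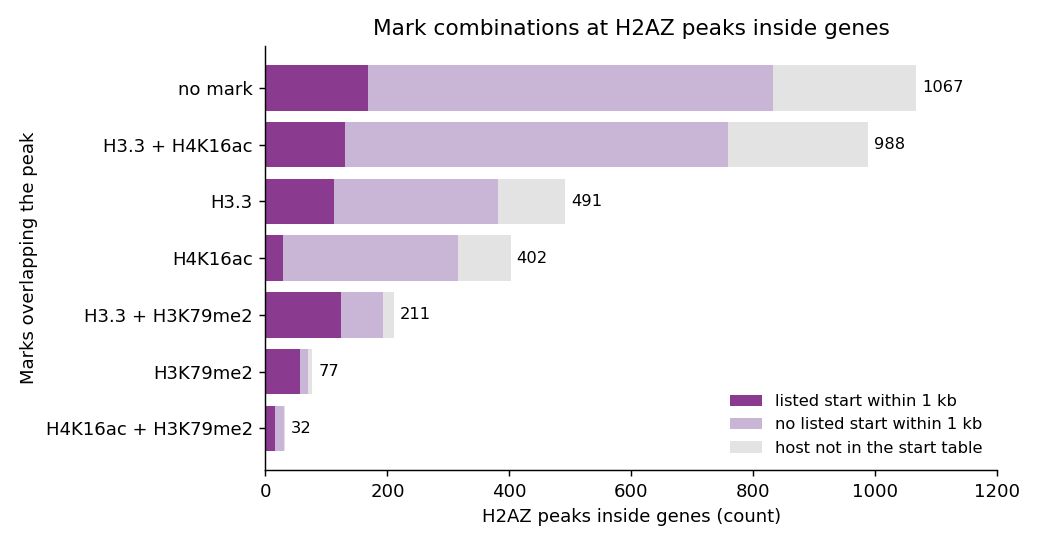
Number of interior H2AZ peaks (x axis) for each combination of overlapping marks (y axis), split by whether a listed transcript start lay within 1 kb. Peaks without a mark number 1067 and those with H3.3 and H4K16ac 988. The bars with H3K79me2 are short. Peaks at listed starts make up 57 of 77 with H3K79me2 alone, 124 of 211 with H3.3 and 16 of 32 with H4K16ac.

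Stronger H2A.Z went with more marks. Over the 4 quartiles of Abcam −log10 q, in rising order, the H3.3 share was 32.2%, 44.6%, 55.2% and 74.9%, and the H3K79me2 share 2.82%, 4.76%, 12.5% and 19.1%. The H4K16ac share was 39.3%, 42.0%, 41.1% and 51.7%. With peaks of all 3 marks kept, in the same ranges of −log10 q, it was 41.2%, 44.1%, 47.1% and 66.7%. Peaks without a mark made up 49.7%, 39.7%, 29.9% and 11.3%. The median width was 219, 314, 414 and 661 bp over the same quartiles, and its part in these shares was not tested.

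The interior peaks of highest Abcam −log10 q carried H3.3 and H4K16ac. The highest −log10 q, 411, was in CNTNAP2, a neuronal adhesion gene of the neurexin superfamily (chr7:148339191-148340067). There the Abcam fold was 79.8 and the CST fold 46.6, and the overlapping peaks had folds of 8.03 in the H3.3 list and 6.44 in the H4K16ac list. STX11, a syntaxin of cytotoxic granule release, followed with an Abcam fold of 106 and a CST fold of 30.0 at a listed start 114 bp away. At the inner start of the ligand gene WNT9B, which lies within the annotated span of LRRC37A2, the folds were 98.4 with Abcam, 36.5 with CST, 17.5 for H3.3 and 10.7 for H4K16ac. Another lay in the overlapping genes TMEM217 and TMEM217B, at 81.6 with Abcam and 43.8 with CST. These 4 were high with both antibodies, and the folds of different lists are not on a shared scale.

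Strong H2A.Z also occurred where no other mark was called. The peaks of highest −log10 q without a mark were in HMGCLL1, an enzyme related to HMG-CoA lyase (Abcam fold 49.6, CST fold 14.3), CYP2J2, an arachidonic acid epoxygenase (57.5 and 27.6), and ARHGAP22, a GTPase-activating protein for Rac (60.7 and 20.6). Each covered a listed start. With H3.3 alone they were in GALNT13, a glycosyltransferase for mucin-type sugars (91.0 and 31.3), RCN3, a calcium-binding protein of the secretory pathway (74.1 and 37.6), and PRX, the myelin protein periaxin (69.9 and 25.9). None of these had a listed start within 1 kb. With H4K16ac alone they were in PSD2, an ARF exchange factor (82.6 and 34.9), CRYM, a thyroid hormone-binding protein (78.9 and 38.1), and RHOU, a small GTPase (60.5 and 26.4).

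Where H3K79me2 overlapped, 6 of the 9 named peaks covered an inner start. With H3K79me2 alone these were in COMMD6, of the COMM domain family (Abcam fold 32.0, CST fold 24.4), and LIPA, the lysosomal acid lipase (43.0 and 21.7), both over a listed start. The third was in the aminopeptidase gene AOPEP (56.3 and 20.5), 58624 bp from one. With H3.3 and H3K79me2 they were in MAPRE2, a microtubule end-binding protein (54.8 and 22.6), the Krüppel-like repressor KLF12 (55.9 and 24) and ZNF782 (54.3 and 23.2), each over a listed start. With H4K16ac and H3K79me2 they were TMEM9, a lysosomal membrane protein (64.3 and 34.5), over a listed start, the complex I subunit gene NDUFC1 (62.1 and 28.1), 5308 bp from one, and a second peak in ARHGAP22 (55.0 and 26.4), 11673 bp from one. The H3K79me2 fold at TMEM9 was 63.2, the highest of these 9, and at AOPEP 7.95, the lowest. A listed start was also covered by the 3 named peaks without a mark and by that in RHOU with H4K16ac alone. Named peaks are the strongest, and 44.7% of peaks in the highest quartile of Abcam −log10 q were at a listed start. The share was 24.7% of all interior peaks, both among peaks whose host gene is in the start table.

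Listed inner starts lay at a minority of the interior H2A.Z peaks, and most often at those with H3K79me2. Of the 2581 peaks whose host gene is in the start table, 637 (24.7%, 23 to 26.4) had a listed start within 1 kb, against 30.4% when peaks with all 3 marks are counted in. Windows of 1 kb around listed starts made up 0.609% of the eligible interior of these genes. Among the 517 peaks left out for carrying all 3 marks, 284 of 447 with a listed host (63.5%) were at a start. The share was 81.4% (57 of 70, 70.3 to 89.7) with H3K79me2 alone, 64.6% (57.4 to 71.3) with H3.3 and H3K79me2 and 51.6% (33.1 to 69.8) with H4K16ac and H3K79me2. It was 29.3% (24.8 to 34.2) with H3.3 alone, 20.2% (17.5 to 23.1) with no mark, 17.3% (14.6 to 20.1) with H3.3 and H4K16ac and 9.21% (6.25 to 13.0) with H4K16ac alone.

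Peaks at listed starts were wider and stronger than those away from them and carried H3K79me2 more often. H3K79me2 overlapped 30.9% (27.4 to 34.7) of the 637 at starts and 4.94% (4.02 to 6.0) of the 1944 away from them. H4K16ac overlapped 27.6% (24.2 to 31.3) at starts and 47.8% (45.5 to 50) away, a difference that rested on leaving out peaks with all 3 marks. With them kept, H4K16ac overlapped 49.9% (46.7 to 53.2) of 921 peaks at starts and 51.8% (49.7 to 54.0) of 2107 away, and the intervals overlapped. H3K79me2 was then at 52.2% (48.9 to 55.5) at starts and 12.3% (10.9 to 13.8) away. H3.3 overlapped 57.6% (53.7 to 61.5) at starts and 49.7% (47.4 to 51.9) away, and no mark 26.4% and 34.2%. The median Abcam fold was 19.2 at starts and 9.08 away, the median CST fold 10.8 and 8.1, and the median width 470 and 337 bp. Where H3K79me2 overlapped, its own peak had a median width of 1383 bp at starts and 815 bp away. Starts missing from the table would count here as away.

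At inner starts H3K79me2 coverage was one-sided, higher downstream than upstream of the H2A.Z summit. With positions counted along the strand of the listed start, H3K79me2 covered 5.92% of 625 peaks at 1 kb upstream of the H2A.Z summit, 28.8% at the summit and 33.1% at 1 kb downstream. It still covered 13.9% at 5 kb and 8.0% at 10 kb downstream, against 1.6% and 3.2% at 5 and 10 kb upstream. H3.3 and H4K16ac were local, at 53.6% and 23.7% on the summit and 2.72% and 2.4% at 5 kb downstream. Peaks with all 3 marks are not in these profiles. At the 1935 oriented peaks away from listed starts, H3.3 covered 45.4% of summits, H4K16ac 43.2% and H3K79me2 4.7%. Over all bases of the eligible interior, H3.3 covered 0.737%, H4K16ac 1.02% and H3K79me2 2.7%. At 5 kb downstream of these summits it was 7.55%, 8.68% and 1.55%, so H3.3 and H4K16ac stayed above their interior average there and H3K79me2 did not. The H2A.Z summit lay downstream of the nearest listed start in 354 of 637 peaks (55.6%), with quartiles at −252 and 251 bp.

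**Figure D3:**
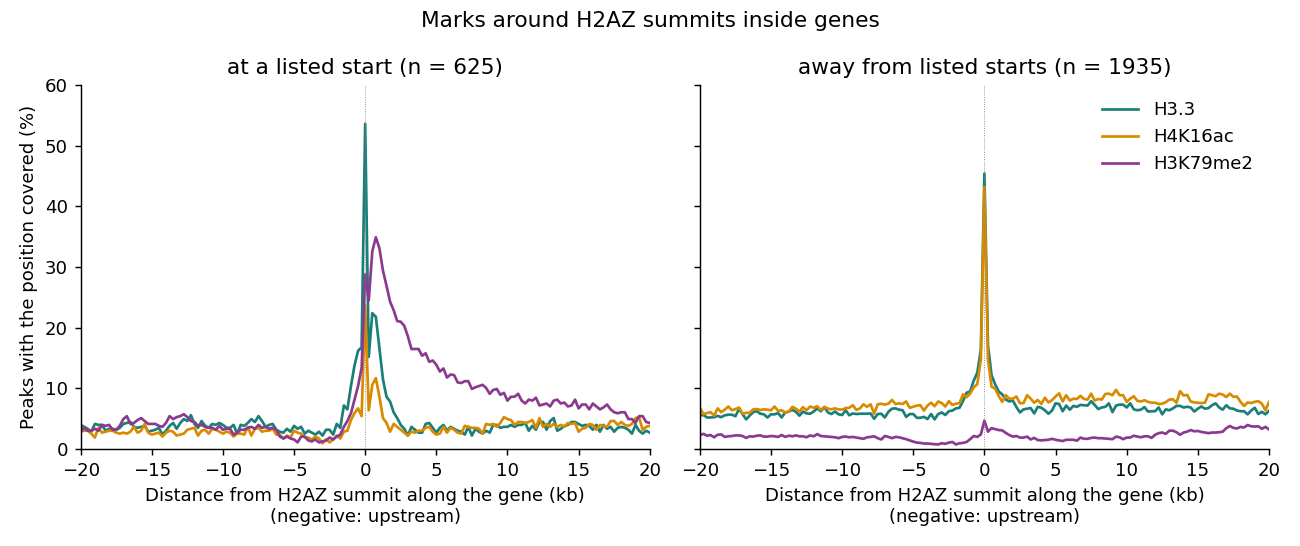
Share of interior H2AZ peaks (%, y axis) whose position at a given distance from the Abcam summit (kb along the gene, x axis, negative upstream) is covered by a peak of H3.3, H4K16ac or H3K79me2. Left, 625 peaks at a listed start, with H3K79me2 at 5.92% 1 kb upstream and 33.1% 1 kb downstream; right, 1935 peaks away from listed starts.

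Inner starts that bore H2A.Z had CG-rich sequence. Of 2734 listed starts inside protein-coding genes and over 5 kb from every gene end, 636 (23.3%) had an interior H2A.Z peak within 1 kb. Their 300-base windows held a median of 22 CG dinucleotides (quartiles 12 and 34.2), with a median GC content of 65.0%. The 1841 inner starts without H2A.Z of both lists held a median of 4 (quartiles 2 and 7) at 47.0% GC. The median was 28, at 67.7% GC, at the 226 inner starts with H2A.Z and all 3 marks and no interior peak within 1 kb. It was 13 at the 24722 starts within 2 bp of a gene end. These were not chosen for H2A.Z, which lay within 1 kb of 49.9% of them. Among inner starts with an interior peak the median was 27 where H3K79me2 was among the marks (214 starts) and 19 where the peak had no mark (202 starts). The GC box GGGCGG, a site for SP and KLF factors, was present on either strand in 67.9% of windows with an interior peak, 15.0% of those without H2A.Z and 44.9% of all windows. The TATA box TATAAA was in 4.25%, 18.5% and 11.6% in the same order, and the CCAAT box CCAAT in 31.3%, 34.1% and 34.6%. The windows of HMGCLL1, CYP2J2, RHOU, WNT9B, COMMD6, LIPA and TMEM9 printed above hold GGGCGG on one strand or the other, and that of KLF12 does not.

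Along the gene, peaks at inner starts became fewer per Mb towards the 3′ end and the others did not. A peak can be at a listed start only where one is listed. Listed starts were not counted by position, so the share of them with a peak is not known along the gene. Densities were taken over the eligible interior of all 11071 protein-coding genes with a known strand, hosts or not. Peaks at listed starts numbered 1.42 per Mb in the first 10% of the gene, 0.707 in the fifth and 0.244 in the last. Peaks away from listed starts numbered 1.35, 2.94 and 2.31 per Mb at the same positions. Peaks with H3K79me2 numbered 0.756 per Mb in the first 10% and 0.0938 in the last, which held 5 of them. Peaks with H4K16ac numbered 0.737 per Mb in the first 10% and 1.18 in the last, an order that turned round with peaks of all 3 marks kept, to 1.4 and 1.24 per Mb. The first and last 10% hold less eligible sequence, since 5 kb at each end was left out.

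**Figure D4:**
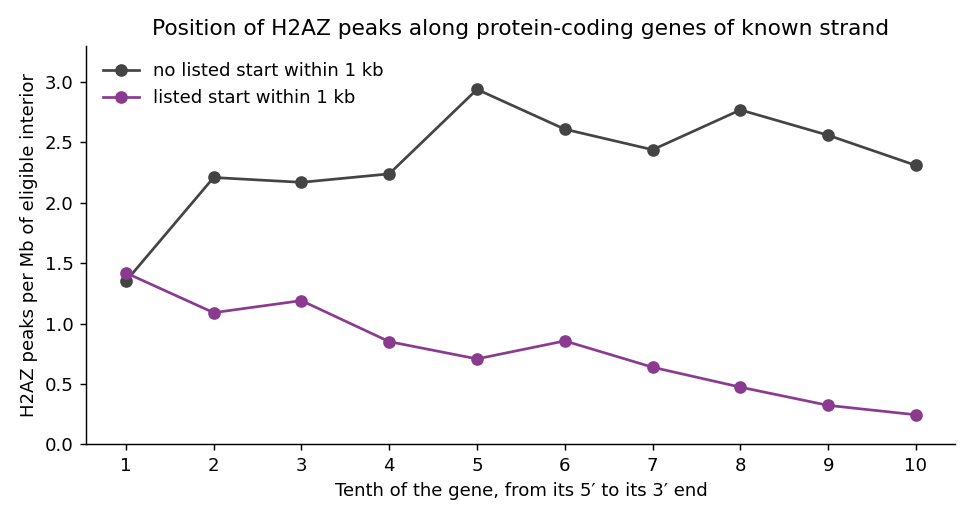
Interior H2AZ peaks per Mb of the eligible interior of all 11071 protein-coding genes of known strand (y axis) by position in the gene, in 10 equal parts from its 5′ to its 3′ end (x axis), for peaks with and without a listed start within 1 kb. The line for listed starts is at 1.42 in the first and 0.244 in the last; the other line is at 1.35 in the first, 2.94 in the fifth and 2.31 in the last.

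A minority of genes hosted these peaks. Of 13688 protein-coding genes with eligible interior, 1800 (13.2%) held at least 1, of which 1091 held 1, 385 held 2 and 324 held 3 or more. Of the peaks, 51 lay in more than 1 gene and were counted in each host. Hosts had a median length of 80.6 kb and other genes 41 kb. The share of hosts went with length, from 6.29% of genes with under 20 kb of eligible interior to 28.8% of those with 200 kb or more. Density went the other way, from 10.6 to 1.41 peaks per Mb, around an average of 3.39. By chromosome it was highest on chromosome 19, with 302 peaks or 18.1 per Mb, followed by chromosomes 22 (8.29) and 17 (8.01), and lowest on chromosome 18 (1.45).

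Genes without H3K79me2 at their 5′ end hosted interior H2A.Z more often than genes with it, among genes of known strand. Both H2A.Z and H3K79me2 lay within 1 kb of the 5′ end of 6465 genes, of which 7.3% were hosts, at 1.81 peaks per Mb. H2A.Z without H3K79me2 lay there in 1522 genes, of which 25.2% were hosts, at 4.95 per Mb. Neither lay there in 2890 genes, of which 19.1% were hosts, at 4.92 per Mb. From length alone, taking the share of hosts among all genes in each of 5 length classes, these groups would have 13.2%, 14.6% and 12.7% hosts. In the 194 genes with H3K79me2 and no H2A.Z at the 5′ end there were 19 hosts. Marks differed too, since H3K79me2 overlapped 19.7% (16.9 to 22.7) of interior peaks in the first group, 4.54% (3.2 to 6.23) in the second and 10.2% (8.38 to 12.2) in the group with neither. In that last group, 85 of the 103 peaks with H3K79me2 lay at a listed inner start. Peaks with all 3 marks, which all carry H3K79me2, are not in these counts. The leaving out lowers them most where such peaks are common, and the groups were not compared with these peaks kept.

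The 10 hosts with most peaks held 11 to 16 each. RYR1, the calcium release channel of skeletal muscle (chromosome 19, 38433691 to 38587564), held 16, with Abcam folds from 5.65 to 66.5, CST folds from 4.91 to 29.9 and no H2A.Z or H3K79me2 at either end. Of these, 7 carried H3.3 with H4K16ac, 3 carried H3.3 alone, 2 H4K16ac alone, 1 H4K16ac with H3K79me2 and 3 no mark. GSE1, a coiled-coil protein (chromosome 16, 85169512 to 85676200), also held 16 and differed in its marks, with H3.3 and H3K79me2 at 7 of them. That combination was at 6.46% of all interior peaks. H3K79me2 covered 14.5% of GSE1 and lay at its 5′ end. PTPRN2, a phosphatase-like receptor of secretory vesicles (chromosome 7, 157539056 to 158587823), held 16 weak peaks, with Abcam folds from 4.4 to 13.2 and no mark at 8. PRKAG2, a regulatory subunit of AMP kinase, held 14, none with H3K79me2 once peaks with all 3 marks were left out.

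SPTBN4, a spectrin of the axon initial segment, and ZFR2 held 13 each, SORCS2, a receptor of the sortilin family, and CACNA1I, a T-type calcium channel, 12 each. CELF4, a neuronal RNA-binding protein, and MYO7A, a myosin of hair cells, held 11 each. In none of these 6 did an interior peak carry H3K79me2, against 9.79% of all interior peaks. Peaks with all 3 marks in these genes were left out by the rule. The Abcam folds ran from 3.82 in ZFR2 to 77.6 in CELF4. H3.3 with H4K16ac, at 30.2% of all interior peaks, was the leading combination in ZFR2 (8 of 13) and CACNA1I (7 of 12) but not in CELF4 (2 of 11).

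Per length, the densest host was ERCC1, a subunit of the nuclease of excision repair, with 7 peaks in 20.8 kb of eligible interior. All 7 carried H3.3, 1 of them with H3K79me2, and none carried H4K16ac. CARD14, a signalling scaffold of keratinocytes, had 5 peaks in 20.6 kb, and PLEKHG5 10 in 43.0 kb, of which 9 carried H3.3 with H4K16ac. LTBP4, which binds latent TGF-beta, had 6 in 26.7 kb, and ESPNL, an espin-like actin bundler, 5 in 22.9 kb. In CFAP99, a gene of cilia and flagella, all 7 peaks carried H3.3 with H4K16ac, as did all 4 in ITGB4, the integrin of hemidesmosomes. Over all interior peaks the shares were 51.7% for H3.3, 43.5% for H4K16ac and 30.2% for the combination of H3.3 with H4K16ac. Peaks with all 3 marks in these hosts were left out by the rule. ZNF185, a LIM domain protein of the cytoskeleton, had 8 with no mark at 4, and ATP2A3, a calcium pump, had 6. Within hosts, 564 of 1516 pairs of neighbouring peaks lay within 2 kb of each other. Neighbours had the same combination in 44.7% of pairs within 2 kb and 35.9% of pairs further apart. Pairing over all interior peaks, whatever their host, would give 24.1%.

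**Figure D5:**
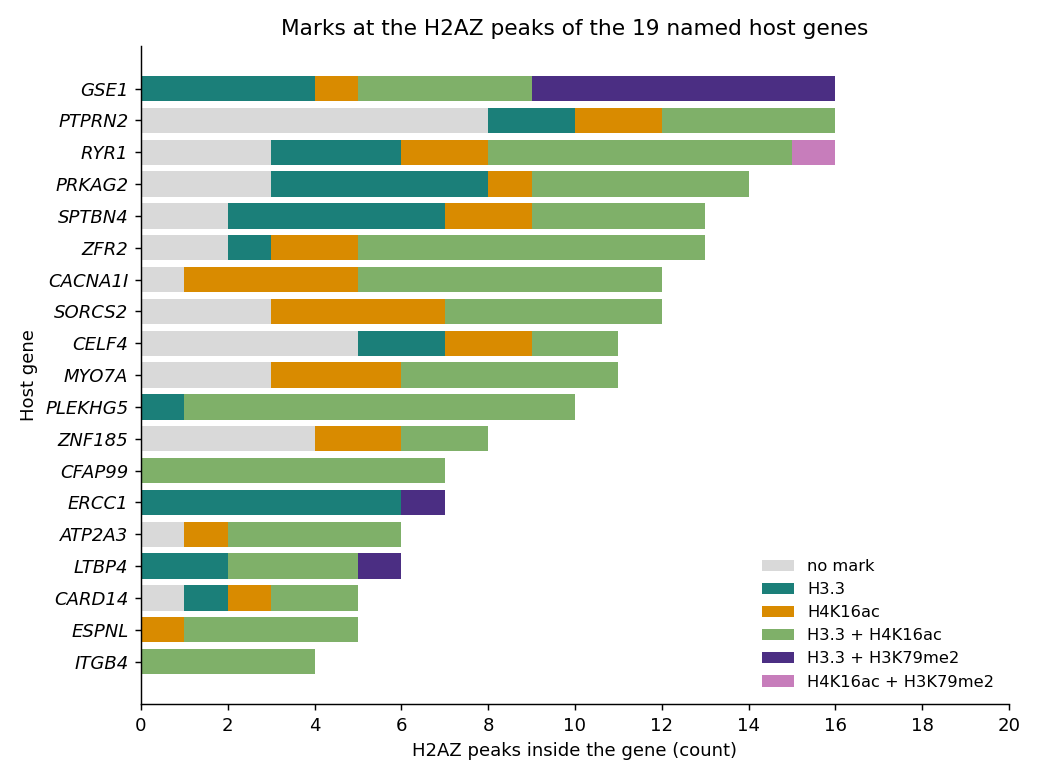
Number of interior H2AZ peaks (x axis) in the host genes with most peaks or most peaks per Mb (y axis), coloured by the marks overlapping each peak. GSE1 stands out among them by 7 peaks with H3.3 and H3K79me2, and CFAP99 and ITGB4 carry H3.3 with H4K16ac at every peak. Peaks with all 3 marks are left out.

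In 12 of 16 gene lists the share of hosts was above that given by gene length. Hosts made up 37 of 111 developmental transcription factors with eligible interior (33.3%, against 16.7% from the same 5 length classes), led by PAX5 with 5 peaks and GLIS1 with 4. In this list H3.3 overlapped 41 of 65 peaks and H3K79me2 14, against 51.7% and 9.79% of all interior peaks. Among potassium and calcium channel genes 28 of 97 were hosts (28.9% against 16.3%), led by CACNA1I and KCNQ1, the latter with 10 peaks. H4K16ac overlapped 48 of their 78 peaks and H3K79me2 none, against 43.5% and 9.79% of all interior peaks. Peaks with all 3 marks, which all carry H3K79me2, are not among the 78. Receptor tyrosine kinases had 17 of 53 (32.1% against 16.7%), led by PDGFRB with 4 peaks.

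Collagens had 13 of 44 hosts (29.5% against 18.3%), led by COL23A1 with 11 peaks and COL26A1 with 7, and ADAM and ADAMTS proteases 12 of 39 (30.8% against 18.0%), led by ADAMTS2. Neither list had H3K79me2 at its interior peaks, 41 in collagens and 20 in the proteases, against 9.79% of all interior peaks. Peaks with all 3 marks are not among them. Phosphodiesterases of cyclic nucleotides had 8 of 23 (34.8% against 20.3%), led by PDE4A and PDE4D with 4 each. Of their 19 peaks 7 lay at a listed start, against 24.7% of all interior peaks with a host in the start table. Synaptic adhesion genes had 20 of 67 (29.9% against 22.7%), led by NRXN2 and NTM. Their median eligible interior was 315 kb, inside the open-ended longest class. Their 39 peaks lay in 34.3 Mb, or 1.14 per Mb, below the 1.41 per Mb of all genes with 200 kb or more. Genes of WNT, TGF-beta and Hippo signalling had 21 of 96 (21.9% against 14.3%), led by LTBP4 and WNT9B. Kidney tubule and podocyte genes had 9 of 35 (25.7% against 15.8%), with 2 peaks each in MAGI2 and in NPHS1, the slit diaphragm protein nephrin.

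Of the other lists, 4 lay below the share for their length and 3 within 4 percentage points above it. Ubiquitin ligases had 9 of 155 hosts (5.81% against 13.8%), with 3 peaks each in TRIM67 and MARCHF10. ZNF factors had 27 of 423 (6.38% against 9.92%), led by ZNF423 with 10 peaks and ZNF185. Subunits of chromatin remodellers had 5 of 52 (9.62% against 15.6%), with 3 peaks in SMARCD3 and 2 in CHD5. Histone methyltransferases and demethylases had 8 of 63 (12.7% against 15.2%), led by PRDM16 with 8 peaks and KDM2B with 4. Motor proteins had 15 of 75 (20% against 16.6%), led by MYO7A and MYO7B, and solute carriers 50 of 318 (15.7% against 12.9%), led by SLC28A1 and SLC5A10. Common fragile site genes had 6 of 20 (30.0% against 28.8%) but only 8 peaks in 26.3 Mb, or 0.304 per Mb. These were 3 in DAB1, all at a listed start, 1 in DMD and 4 in other members. The lists were chosen with earlier results known and were not tested, so a difference from the share for their length is a description.

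Peaks that lacked H3.3 or H4K16ac lay nearer to a peak of that mark than those lacking H3K79me2 did. The nearest H3.3 peak lay a median of 9842 bp from the 1578 interior peaks it did not overlap, and the nearest H4K16ac peak 7572 bp from 1846. For H3K79me2 the median was 49534 bp from 2948 peaks, and 8.55% of them had one within 5 kb. Of the 1067 peaks without a mark, 28.2% had a peak of at least 1 of the 3 marks within 1 kb and 50% within 5 kb. The absence of a mark refers to the authors' threshold in a single library of unknown depth.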

How the data were processed

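ChIP-seq peak lists of 5 antibodies from HEK293T cells were used, and the input library was not used. Per the submitters' processing notes, the build was hg38 and the tools named are MACS2 2.1.0, Bowtie 1.1.2, Trimmomatic 0.33 and bcl2fastq 2.17; their settings were not stated in the sources used here. The deposited fold is a linear ratio at the summit, and the deposited −log10 p and −log10 q come from the authors' caller. The deposited integer score and the −log10 p were not used. Fold and −log10 q were compared between peaks of the same list.

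Peaks on chromosomes 1 to 22 and X were kept. Genes came from a RefSeq table of GRCh38.p14 without exons, so exonic and intronic positions were not assigned. Listed starts and strands came from RefSeq start windows, matched by gene ID to the hosts of 2581 of 3268 peaks. Overlap meant at least 1 bp. Eligible interior is sequence of a protein-coding gene more than 5 kb from every gene end. Length classes of eligible interior had limits of 20, 50, 100 and 200 kb. Shares have exact 95% intervals. Python 3.11.15, pandas 2.3.3 and SciPy 1.17.1 were used, and the rule was tested on simulated data.

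The peaks and gene lists were chosen with earlier results of these data known. Named peaks are the 5 of highest Abcam −log10 q and the 3 highest per combination. Named hosts are the 10 with most peaks, the 10 densest with at least 3 peaks and 20 kb, and the 2 leading hosts of each list; some items under these rules are not reported here. Comparisons at listed starts, within 250 to 500 bp and with peaks of all 3 marks kept (at gene ends, at starts, by quartile and by position) were added after seeing the data.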

Additional observations from a re-analysis of the deposited data

How the results depend on the processing

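Across 8 alternatives, 28 of 55 values stayed within their counting interval or, for counts of peaks and genes, within 1.5 times, and 27 moved; the order H3.3 over H4K16ac over H3K79me2 held in each. Each antibody has 1 library, so no replicate could be left out. No paired analysis was possible because no group has replicates. Beyond 2 kb from gene ends H3.3 was at 54.6%, H3K79me2 at 11.2% and no mark at 29.6%. Beyond 10 kb, 2134 peaks remained, with H3.3 at 48%, H4K16ac at 40.8% and no mark at 35.8%. With ends of protein-coding genes only, H3K79me2 was at 11.7% and listed starts at 30%. With CST peaks as the base these were 11.4% and 27.3%. With 50% of the peak covered, H3.3 was at 44.4%, H4K16ac at 29.9%, H3K79me2 at 14%, no mark at 40.1% and listed starts at 29%. With −log10 q of at least 5 in all lists, H4K16ac was at 36.4%, H3K79me2 at 11.9%, no mark at 34.7% and listed starts at 27%. With peaks of all 3 marks kept, H3.3 was at 58.3%, H4K16ac at 51.2%, H3K79me2 at 22.1%, no mark at 28.2% and listed starts at 30.4%. Without the peaks at listed starts, an alternative chosen after seeing the data, H4K16ac was at 47.4% and H3K79me2 at 4.68%. Shares for listed starts were also added after seeing the data. The cause of these shifts was not tested. Depth is unknown, so a mark that was not called may lie under the threshold.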
